A study of Mus musculus with 16 samples.

Results

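Antigen presentation by MHC class I was followed through 10 genes in epididymal fat, a visceral depot next to the epididymis, of obese male mice. The genes were those listed for the pathway (B2m, H2-K1, H2-D1, Tap1, Tap2, Tapbp, Nlrc5, Psmb8, Psmb9 and Psmb10), found by symbol among the 54532 Ensembl gene IDs of the deposited table. All 10 were found, and all 10 were among the 13271 genes with a mean of at least 1 FPKM (fragments per kilobase of gene, scaled to the size of the library), which were the genes tested. The table holds 16 RNA-seq libraries in 4 groups of 4. Tubastatin libraries came from mice given tubastatin A-HCl, an inhibitor of the deacetylase HDAC6, and vehicle libraries from mice given the carrier, both at 25 weeks of age per the labels. AdKO libraries came from mice with an adipose-specific Hdac6 knockout and AdCre libraries from adiponectin-Cre controls, both labelled as vehicle-treated and 28 weeks old. All were C57BL/6 males after 20 weeks of high-fat diet.

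The labels also give every tubastatin and vehicle mouse the genotype of a global HDAC6 knockout, whereas the series' design line mentions no knockout and an age near 28 weeks. The genotype and age behind the drug comparison are therefore uncertain. The adiponectin promoter drives Cre in fat cells, while the RNA is of whole tissue and holds vessel, stromal and immune cells too, so fewer cells of a type and less RNA per cell cannot be told apart. Tubastatin and AdKO each have their own controls, and levels across the drug and knockout cohorts cannot be told apart from their labelled ages and genotypes. Whether every library stands for its own animal is not in the labels, and p-values then rest on the spread among libraries, which may be technical.

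Reads recovered from the FPKM steps totalled 18700680 to 23549443 in genes per library. Fat cell transcripts were abundant in every library, with 6 adipocyte markers summing to 2547 to 3014 FPKM in tubastatin, 2650 to 4722 in vehicle, 2457 to 5347 in AdKO and 4702 to 5841 in AdCre. Hdac6 itself stood at 1.56 ± 0.112 FPKM in tubastatin and 1.58 ± 0.167 in vehicle (SD, n = 4, two-sided exact permutation p = 0.8286). It stood at 3.43 ± 0.595 FPKM in AdKO and 4.17 ± 0.4499 in AdCre, with overlapping libraries (SD, n = 4, two-sided exact permutation p = 0.0571). The 8 tubastatin and vehicle libraries, labelled global knockout, held 1.41 to 1.78 FPKM of Hdac6, against 3.64 to 4.74 in AdCre, without overlap. Those cohorts also differ in labelled age, and which part of Hdac6 was removed is not in the labels, so the levels do not settle either knockout label. In sum, 4 epididymal epithelium markers reached 8.97 FPKM in AdCre replicate 2 and 28.5 in AdCre replicate 3, against 0.119 to 1.66 in the other libraries. Of those markers Gpx5 was listed at 0 in 14 libraries, Adam7 in 12 and Lcn5 in 15.

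MHC class I molecules carry peptides cut from a cell's own proteins to its surface, where CD8 T cells and NK cells read them. A heavy chain folds around B2m, TAP pumps peptides into the endoplasmic reticulum, and tapasin holds the empty chain beside TAP until a peptide fits. Interferon-gamma exchanges the catalytic subunits of the proteasome for those of the immunoproteasome, and NLRC5 drives the class I genes together through a shared promoter module bound by RFX, CREB or ATF and NF-Y factors. In fat, class I molecules are on nearly all cells, and T cells and interferon signalling are a known part of the response of visceral fat to obesity.

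The genes lie in few places. On chromosome 17, within or beside the H2 complex, lie 7 of them, with 2 (Nlrc5 and Psmb10) on chromosome 8 and B2m on chromosome 2. The starts of H2-K1 and H2-D1 lie 1.26 Mb apart, while Psmb9 and Tap1 run in opposite directions from RefSeq starts 225 bases apart. In GENCODE M21, whose coordinates are given for each gene, their exons overlap by 212 bases. Promoters came from the RefSeq table for GRCm38.p6, which had an entry for 8 of the 10 genes. They were read over the 250 bases before the RefSeq start. That start can differ from the GENCODE one, and the windows of H2-D1, Tapbp, Psmb8 and Psmb9 lie within the GENCODE gene. The stretches that matter for a shared module are the following, 5′ to 3′ on the strand of the gene, with TGACG (the core of the X2 box bound by CREB and ATF) and ATTGG (the Y box CCAAT read from the other strand, bound by NF-Y) in capitals.
B2m, chr2:122147609-122147638, plus strand: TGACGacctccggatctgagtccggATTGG
H2-K1, chr17:34000359-34000388, minus strand: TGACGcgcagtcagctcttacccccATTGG
H2-D1, chr17:35262993-35263022, plus strand: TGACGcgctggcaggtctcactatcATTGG

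These 3 genes make the surface molecule itself, and in each of them the 2 short motifs stood 20 bases apart within 30 bases. The pair began 78 bases before the start in B2m, 41 in H2-K1 and 101 in H2-D1. H2-K1 and H2-D1 were identical at 23 of the 30 positions, B2m and H2-K1 at 13, and B2m and H2-D1 at 12. The same spacing was found in 30 of 32851 promoters (0.0913%), among them that of the non-classical class I gene H2-M3, and in 3 of the 8 genes with an entry. Since the spacing was read from these genes, their count is a description. Upstream of the pair lie motifs of interferon and NF-kB signalling, shown in the longer stretches of B2m and H2-K1, where the capitals also mark the interferon-stimulated response element (ISRE) of B2m and the NF-kB sites of both.
B2m, chr2:122147543-122147643, plus strand: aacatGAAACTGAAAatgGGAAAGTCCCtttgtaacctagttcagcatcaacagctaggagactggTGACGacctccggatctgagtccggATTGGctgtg
H2-K1, chr17:34000354-34000463, minus strand: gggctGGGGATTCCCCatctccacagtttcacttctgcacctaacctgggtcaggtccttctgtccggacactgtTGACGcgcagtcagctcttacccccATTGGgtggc

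Searched on both strands, a strict 10-base form of the ISRE was in the promoter of 1 of the 8 genes (B2m). The same form was in 2.98% of all promoters. Looser forms were not searched, so the lack of a match, as in H2-K1 and H2-D1, does not show that the element is absent. The NF-kB consensus was in 3 genes (B2m, H2-K1 and H2-D1) and in 7.25% of all. CCAAT was in 6 genes and 33.8% of all, and TGACG in 5 genes and 17.8% of all. The windows of Psmb9 and Tap1 have 225 bases in common, and 1 CCAAT and 1 TGACG there are counted for both genes. These matches are descriptions of the letters in the windows, and binding was not measured.

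**Figure D1:**
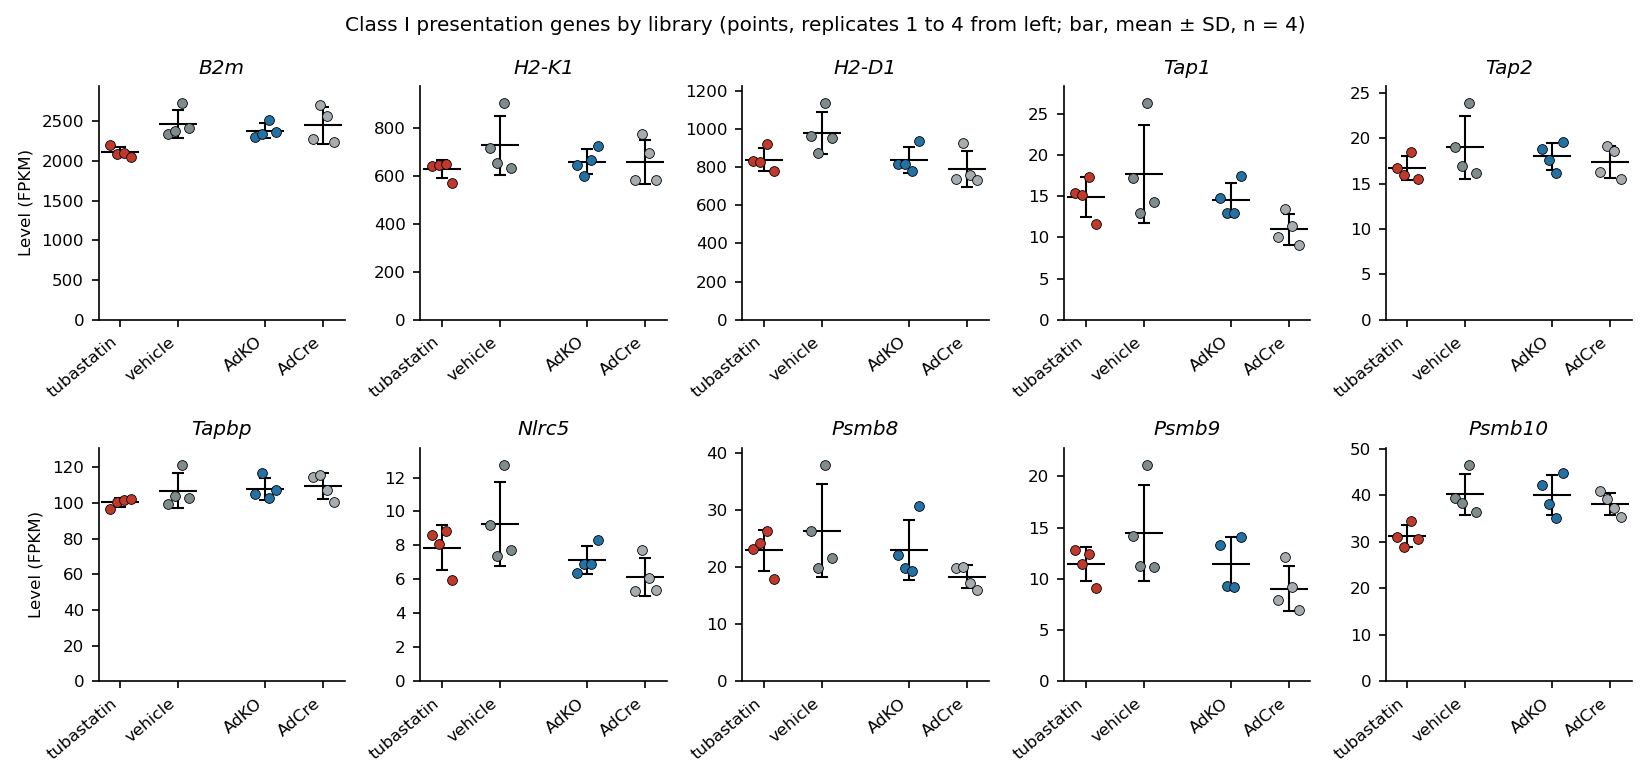
Level of each of the 10 genes in FPKM (vertical axis, from 0) in every library of the 4 groups (horizontal axis). Points are libraries, replicates 1 to 4 from left to right, and bars show the mean ± SD of 4; vehicle replicate 3 is the highest point of its panel for all 10 genes.

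Levels spanned a wide range. FPKM values are per gene length, for most genes the joined exons of all transcripts, so the order of the genes depends on those lengths and is approximate. B2m was the most abundant, at a mean of 2108 FPKM in tubastatin, 2464 in vehicle, 2381 in AdKO and 2448 in AdCre. The heavy chains H2-D1 and H2-K1 followed, Tapbp had group means of 100.2 (tubastatin) to 109 FPKM (AdCre), and the other 6 genes had group means from 6.13 (Nlrc5 in AdCre) to 40.2 FPKM (Psmb10 in vehicle). In the order of the 4 group means, vehicle came first for 9 genes and AdCre for 1, Tapbp. Tubastatin came last for 5 genes (B2m, H2-K1, Tap2, Tapbp and Psmb10) and AdCre for the other 5. Libraries of groups next to each other in that order overlapped in 28 of 30 cases. The exceptions were AdKO and tubastatin for B2m, and AdCre and tubastatin for Psmb10. These cross-cohort levels carry no test.

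The drug comparison asks how the fat of tubastatin-treated mice differed from that of vehicle-treated mice. All 10 class I genes had lower means with tubastatin, with differences from −6.22% (Tapbp) to −22.4% (Psmb10), and 0 of 10 passed the test, with 1 of 10 (Psmb10) at an unadjusted p under 0.05. Their log2 fold changes, on the scale of log2(FPKM + 1), ran from −0.35 to −0.09 with a median of −0.20, against a median of −0.01 over all genes tested. Over all genes, 0 of 13271 (0%) passed limma at an adjusted p under 0.05, 54.6% had a negative fold change and 6.10% were lower at an unadjusted p under 0.05. Scaled to total reads in genes, 5555 of the 13271 genes had a negative fold change and all 10 class I genes still did. One library carried much of the difference: vehicle replicate 3 was the highest of all 16 libraries for all 10 genes. Without it 9 of 10 fold changes were negative and their median was −0.07.

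The surface molecule comes first. B2m, the invariant light chain (ENSMUSG00000060802, chromosome 2, 122147686 to 122153083 in GRCm38), had 2196, 2087, 2094 and 2053 FPKM in the 4 tubastatin libraries and 2334, 2381, 2726 and 2414 in the 4 vehicle libraries. Every tubastatin library was below every vehicle library. The log2 fold change was −0.22 (SE 0.10, 95% interval −0.45 to 0.005), limma adjusted p = 0.420, from 35147 to 51352 reads per library. Without vehicle replicate 3 it was −0.17. H2-K1, a classical heavy chain (ENSMUSG00000061232, chromosome 17, 33996017 to 34000347), had 641, 646, 649 and 570.1 FPKM with tubastatin and 715, 654, 902 and 634 with vehicle. The groups overlapped, with tubastatin replicate 4 low and vehicle replicate 3 high. H2-D1, the other classical heavy chain of this strain (ENSMUSG00000073411, chromosome 17, 35262730 to 35267499), had 834, 826, 920.2 and 779 FPKM with tubastatin and 965, 872, 1135 and 952 with vehicle. Here only tubastatin replicate 3 reached into the vehicle range. The log2 fold changes were −0.20 (SE 0.12) for H2-K1 and −0.22 (SE 0.11) for H2-D1, limma adjusted p = 0.522 and 0.439, and H2-K1 stood at −0.09 without vehicle replicate 3.

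Some of these values depend on how reads were shared between similar genes, which is not given in the sources used here. Of the 50-base words in H2-K1 transcripts, 9.63% also occur in other genes, H2-Q10 first, and in H2-D1 12.8%, H2-Q1 first, while B2m and Psmb10 share none. Tapbp shares 23.2%, mostly with the antisense gene Gm19412, Psmb8 11.9% and Tap2 11.6%, with the overlapping genes Gm20496 and Gm15821 first. Tap1 and Psmb9 overlap too, and share 2.88% of the words of Tap1 and 4.19% of those of Psmb9 with each other. Reads from such overlapping genes cannot be told apart unless strand was used.

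The peptide loading genes overlapped between the groups. Tap1, a subunit of the TAP peptide pump (ENSMUSG00000037321, chromosome 17, 34187553 to 34197225), had 15.4, 15.1, 17.4 and 11.7 FPKM with tubastatin and 17.3, 13.02, 26.3 and 14.4 with vehicle. Vehicle replicate 3 stood far above the rest and the other 3 vehicle libraries lay within the tubastatin range. On the log2 scale Tap1 differed by −0.20 (SE 0.21), limma adjusted p = 0.701, and by −0.0014 without that library. Tap2, the partner subunit (ENSMUSG00000024339, chromosome 17, 34203527 to 34216321), had 16.7, 15.9, 18.5 and 15.5 FPKM with tubastatin and 18.99, 16.95, 23.9 and 16.2 with vehicle, overlapping. Tapbp, which encodes tapasin (ENSMUSG00000024308, chromosome 17, 33915899 to 33929292), had 96.7, 100.4, 102 and 102 FPKM with tubastatin and 99.6, 104, 121 and 103 with vehicle. Vehicle replicate 1 lay within the tubastatin range, and replicates 2 and 4 just above it. Log2 fold changes were −0.16 (SE 0.12) for Tap2 and −0.09 (SE 0.07) for Tapbp, limma adjusted p = 0.578 and 0.623. Without vehicle replicate 3 they were −0.05 and −0.03.

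Nlrc5, the transactivator of class I genes (ENSMUSG00000074151, chromosome 8, 94434356 to 94527272), had 8.63, 8.06, 8.83 and 5.94 FPKM with tubastatin and 9.21, 7.37, 12.7 and 7.73 with vehicle. Tubastatin replicate 4 was the lowest and vehicle replicate 3 the highest, with the others overlapping. The log2 fold change was −0.20 (SE 0.17), limma adjusted p = 0.651, from 831 to 2372 reads per library over the 16 libraries, and −0.05 without vehicle replicate 3.

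The immunoproteasome subunits follow. Psmb10, the inducible subunit that takes the place of Psmb7 (ENSMUSG00000031897, chromosome 8, 105935735 to 105938444), had 31.03, 28.8, 34.4 and 30.5 FPKM with tubastatin and 39.4, 38.4, 46.6 and 36.5 with vehicle. All tubastatin libraries were below all vehicle libraries, as for B2m. These 2 of the 10 genes were the ones without overlap on the lower side, where 3.62% of all genes were. Psmb10 had the largest fold change of the 10, at −0.35 (SE 0.09, 95% interval −0.55 to −0.15), and was 157th of the 13271 genes by p, with limma adjusted p = 0.275. It had 1040 to 1739 reads per library, and its fold change stayed between −0.40 and −0.28 when any 1 library was left out.

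Psmb8, the inducible counterpart of Psmb5 (ENSMUSG00000024338, chromosome 17, 34197721 to 34201454), had 23.2, 24.3, 26.4 and 18.01 FPKM with tubastatin and 26.4, 19.8, 37.99 and 21.6 with vehicle. The highest value was vehicle replicate 3, and vehicle replicate 2 was below 3 of the tubastatin libraries. Psmb9, the inducible counterpart of Psmb6 (ENSMUSG00000096727, chromosome 17, 34181987 to 34187764), had 12.8, 11.5, 12.5 and 9.07 FPKM with tubastatin and 14.2, 11.2, 21.1 and 11.2 with vehicle, again overlapping. The log2 fold changes were −0.16 (SE 0.20) for Psmb8 and −0.28 (SE 0.20) for Psmb9, limma adjusted p = 0.746 and 0.578. Without vehicle replicate 3 they were 0.02 and −0.09.

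The knockout comparison asks how fat with an adipose-specific Hdac6 knockout differed from adiponectin-Cre controls. Here 8 of the 10 fold changes were positive and 2 negative (B2m and Tapbp, where 49.1% of all genes were negative), with a median of 0.08 against 0.004 over all genes tested, and 0 of 10 passed. Over all genes 0 of 13271 (0%) passed limma at an adjusted p under 0.05, 50.9% had a positive fold change and 4.78% were higher at an unadjusted p under 0.05. For none of the 10 genes were the groups free of overlap, which 6.48% of all genes were. The genes with the largest values were Tap1 and the 2 immunoproteasome subunits of the same locus, Psmb9 and Psmb8, while log2 values of B2m, H2-K1 and Tapbp were −0.04, 0.01 and −0.02. The median was 0.02 without AdKO replicate 4 and 0.18 without AdCre replicates 2 and 3, which hold the epididymal transcripts.

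Tap1 had 14.8, 12.97, 13.02 and 17.5 FPKM in AdKO and 10.03, 13.5, 11.3 and 9.11 in AdCre. Only AdCre replicate 2 reached into the AdKO range. The log2 fold change was 0.38 (SE 0.13, 95% interval 0.07 to 0.69), limma adjusted p = 0.407, and this was the 1 gene of 10 higher at an unadjusted p under 0.05. Psmb9 had 13.3, 9.26, 9.195 and 14.04 FPKM in AdKO and 7.89, 12.1, 9.21 and 6.999 in AdCre, with AdKO replicates 1 and 4 above all others. Its log2 fold change was 0.31 (SE 0.19), limma adjusted p = 0.568. Adipocyte markers summed to 2909 and 2457 FPKM in AdKO replicates 1 and 4, against 5086 and 5347 in AdKO replicates 2 and 3. Macrophage markers summed to 3428 and 3040 FPKM in AdKO replicates 1 and 4, against 1825 and 1906 in replicates 2 and 3. The part of this split in the AdKO values was not tested. Psmb8 had 22.1, 19.9, 19.3 and 30.8 FPKM in AdKO and 19.9, 20.1, 17.2 and 16.1 in AdCre, with AdKO replicate 4 far above the rest. Its log2 fold change was 0.30 (SE 0.15), limma adjusted p = 0.511, and 0.15 without that library. Nlrc5 had 6.35, 6.93, 6.92 and 8.31 FPKM in AdKO and 5.34, 7.73, 6.07 and 5.37 in AdCre, where AdCre replicate 2 lay above 3 AdKO libraries, and the log2 difference was 0.20 (SE 0.12), limma adjusted p = 0.568, and 0.13 without AdKO replicate 4.

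For the surface chains, B2m had 2300.2, 2339, 2522 and 2363 FPKM in AdKO and 2272, 2709, 2569.5 and 2241 in AdCre, and H2-K1 averaged 658 ± 51.8 FPKM in AdKO and 658 ± 92.3 in AdCre (SD, n = 4 each). AdCre replicates 2 and 3 were the highest of the cohort for B2m, and the groups overlapped widely for both genes. Their log2 fold changes were −0.04 (SE 0.14, 95% interval −0.35 to 0.27) and 0.01 (SE 0.13, 95% interval −0.29 to 0.31), limma adjusted p = 0.930 and 0.987. The sign for B2m turned without AdCre replicate 2, to 0.01, and the sign for H2-K1 without AdKO replicate 4, AdCre replicate 1 or AdCre replicate 4, to between −0.05 and −0.04. H2-D1 averaged 838 ± 67.5 FPKM in AdKO and 789 ± 93.5 in AdCre, Tap2 18.03 ± 1.48 in AdKO and 17.4 ± 1.74 in AdCre, Tapbp 108 ± 6.19 in AdKO and 109 ± 7.09 in AdCre, and Psmb10 40.1 ± 4.25 in AdKO and 38.2 ± 2.39 in AdCre (SD, n = 4 each). Log2 fold changes of these 4 genes ran from −0.02 (Tapbp) to 0.09 (H2-D1), limma adjusted p = 0.789 to 0.931. Without AdKO replicate 4 that of H2-D1 was 0.04.

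**Figure D2:**
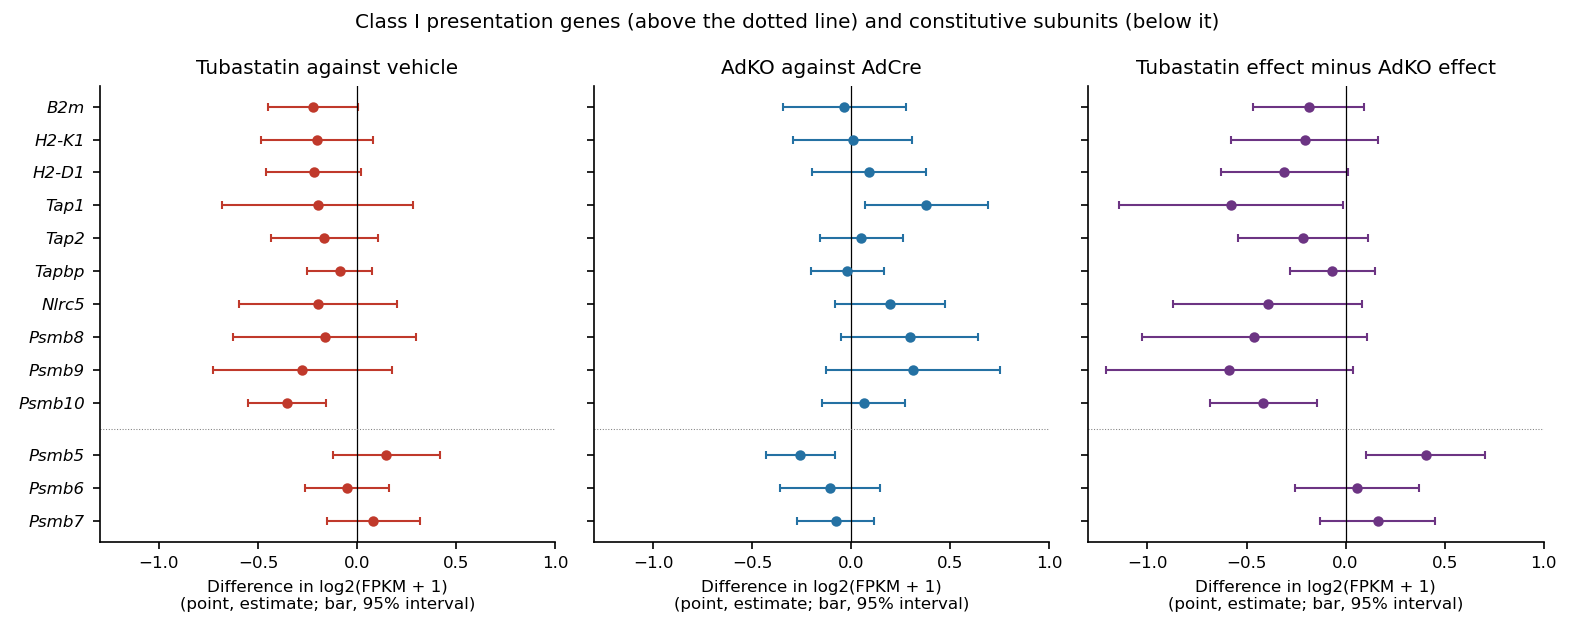
Difference in log2(FPKM + 1) with its 95% interval (horizontal axis) for the 10 genes and the constitutive subunits Psmb5, Psmb6 and Psmb7 (vertical axis), from tubastatin against vehicle, AdKO against AdCre, and the first difference minus the second. All 10 class I genes lie left of 0 in the first and last panels, and 8 lie right of 0 in the middle one.

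The drug and knockout fold changes have separate controls, so their difference was tested on all 16 libraries. All 10 differences (tubastatin effect minus AdKO effect) were negative, with a median of −0.35 against −0.002 over all genes, where 50.6% were negative, and all 10 remained negative with each library left out in turn. None of the 10 passed limma over all genes, where 0 of 13271 (0%) did, and 4.57% of all genes were lower at an unadjusted p under 0.05. Psmb10 had a difference of −0.42 (SE 0.13, 95% interval −0.69 to −0.15), limma adjusted p = 0.343. Tap1 had −0.58 (SE 0.26, 95% interval −1.14 to −0.01), limma adjusted p = 0.549, and these were the 2 genes below an unadjusted 0.05. Psmb9 stood at −0.59 (SE 0.29) and Psmb8 at −0.46 (SE 0.27), limma adjusted p = 0.583 and 0.622, and Tapbp was nearest to 0 at −0.07 (SE 0.10). Without vehicle replicate 3 these differences were −0.38 for Tap1, −0.40 for Psmb9, −0.28 for Psmb8 and −0.005 for Tapbp.

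Each inducible catalytic subunit was also set against the constitutive subunit it replaces, since a ratio within a library does not depend on its depth. Psmb10 over Psmb7 was 1.69, 1.56, 1.53 and 1.51 in tubastatin libraries and 2.26, 1.698, 2.6 and 2.13 in vehicle libraries, with every tubastatin library below every vehicle library. The log2 difference was −0.45 (two-sided exact permutation p = 0.0286, the smallest that 70 relabelings allow, and 0.0858 adjusted over 6 tests). Psmb8 over Psmb5 was 0.304, 0.309, 0.268 and 0.423 in AdKO and 0.222, 0.244, 0.218 and 0.185 in AdCre. Every AdKO library was above every AdCre library, by 0.57 on the log2 scale (two-sided exact permutation p = 0.0286, adjusted 0.0858). In this ratio the constitutive subunit differed in level too: Psmb5 stood at 72.7, 64.4, 72.1 and 72.7 FPKM in AdKO and 89.7, 82.3, 78.8 and 86.8 in AdCre, without overlap, at −0.26 (SE 0.08) on the log2 scale and a limma adjusted p of 0.336. Psmb7 stood at 18.4, 18.4, 22.5 and 20.2 FPKM with tubastatin and 17.4, 22.6, 17.9 and 17.2 with vehicle, overlapping.

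The other ratios overlapped between groups. Psmb9 over Psmb6 was 0.219, 0.195, 0.196 and 0.266 in AdKO and 0.121, 0.229, 0.174 and 0.132 in AdCre, a log2 difference of 0.45 (two-sided exact permutation p = 0.143, adjusted 0.286). With the drug it differed by −0.24 (exact p = 0.343, adjusted 0.412), and Psmb8 over Psmb5 by −0.32 (exact p = 0.229, adjusted 0.344). Psmb10 over Psmb7 differed by 0.15 between AdKO and AdCre (exact p = 0.486, adjusted 0.486). No ratio passed the adjusted threshold, and without any 1 of the tubastatin libraries the exact p for Psmb10 over Psmb7 was 0.0571.

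**Figure D3:**
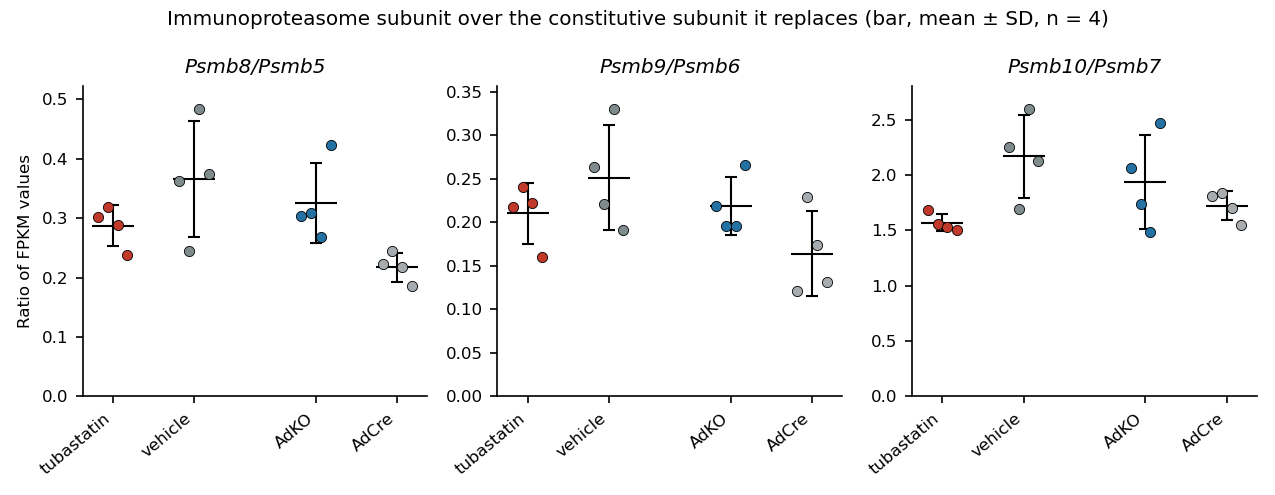
Ratio of FPKM values of each inducible subunit to the constitutive subunit it replaces (vertical axis, from 0) in every library of the 4 groups (horizontal axis). Points are libraries and bars show the mean ± SD of 4; tubastatin lies wholly below vehicle for Psmb10/Psmb7, and AdKO wholly above AdCre for Psmb8/Psmb5.

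The rest of the 20S proteasome core gives the setting for these ratios. Of 14 constitutive core genes, 13 had positive fold changes with tubastatin (median 0.14, where 45.4% of all genes were positive), 8 were higher at an unadjusted p under 0.05 (5.94% of all genes) and 6 were higher without overlap (3.53% of all genes). None passed over all genes. Psmb2, a structural beta subunit, had 61.8, 63.2, 63.4 and 65.7 FPKM with tubastatin and 54.8, 53.98, 54.9 and 53.6 with vehicle, a log2 difference of 0.22 (SE 0.04), limma adjusted p = 0.233. Psma7, an alpha ring subunit, averaged 38.3 ± 2.06 FPKM with tubastatin and 32.4 ± 1.5 with vehicle (SD, n = 4 each), limma adjusted p = 0.275. Both genes stood higher in every tubastatin library than in any vehicle library, the opposite side to Psmb10. In AdKO against AdCre, 12 of the 14 fold changes were negative (median −0.08, where 49.1% of all genes were negative) and 2 positive. When scaled to total reads in genes, 9 were negative and 5 positive. Psma6 stood at 69.5, 80.5, 76.5 and 75.5 FPKM in AdKO and 87.7, 90.8, 91.8 and 89.2 in AdCre, without overlap, limma adjusted p = 0.322.

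Most of the 10 genes varied together from library to library. After removal of the group means, Pearson's r over the 16 libraries for the 45 pairs ran from 0.201 (B2m and Psmb10) to 0.949 (Tap1 and Psmb9), with a median of 0.812, and 29 pairs had a permutation p under 0.05 after adjustment over the 45. Tap1 with Psmb9, which overlap by 212 exon bases and share words as given above, gave Spearman's rho of 0.932, with permutation p = 6e-05 for r and 4e-05 for rho and adjusted p = 0.000675 and 0.000562. Without the 2 farthest libraries r was 0.936, and it was 0.979 within the drug cohort and 0.957 within the knockout cohort. Tap1 with Nlrc5, on different chromosomes, gave r = 0.946 and rho = 0.941, with permutation p = 0.00017 and 0.00029, adjusted 0.00081 and 0.0015. Without the 2 farthest libraries r was 0.910, and it was 0.982 and 0.856 within the drug and knockout cohorts. The lowest r values were in pairs with B2m or Tapbp, and B2m with Psmb10 had rho = 0.156 and permutation p = 0.474 and 0.578, adjusted to the same values, with r = −0.179 without the 2 farthest libraries. All pairs share libraries and their depth.

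**Figure D4:**
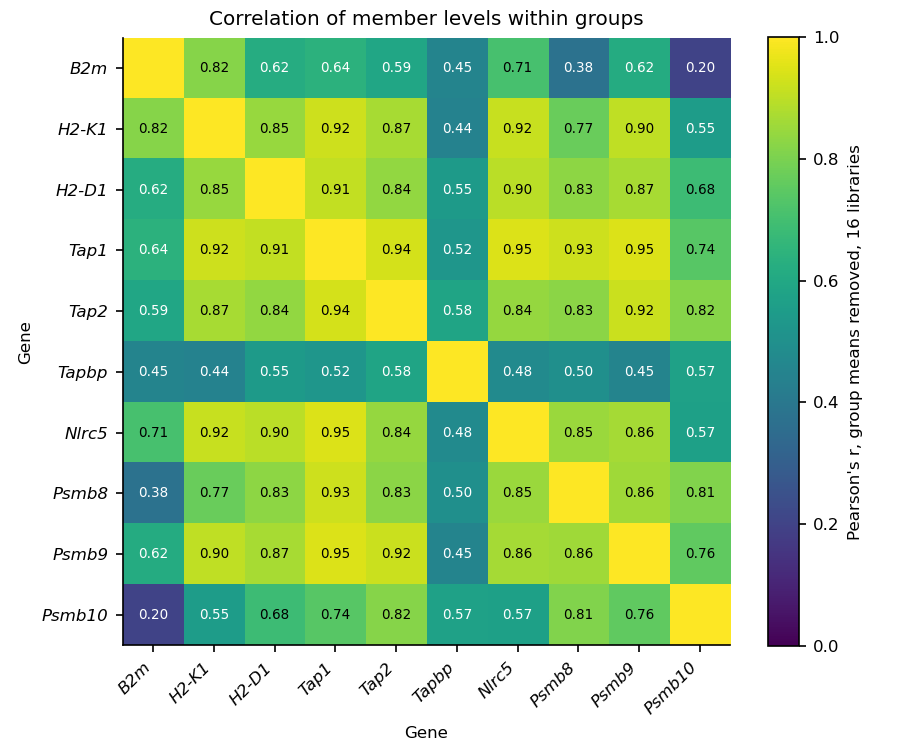
Pearson's r between each pair of the 10 genes (both axes) over 16 libraries after removal of the group means, with the colour scale from 0 to 1. Tap1, Tap2, Nlrc5, Psmb8, Psmb9 and the heavy chains form the bright block, while Tapbp and the B2m–Psmb10 pair (0.20) are darker.

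The same libraries were extreme for most genes. Vehicle replicate 3 was highest for all 10 genes, and tubastatin replicate 4 was the lowest of the drug cohort for 8. In the knockout cohort AdKO replicate 4 was the highest for 7 genes and AdCre replicate 4 the lowest for 7. The 12 T and NK cell markers, none of them at 0 in any library, summed to 42.8, 33.1, 18.8 and 27.6 FPKM in the 4 tubastatin libraries, 46.6, 36.5, 71.5 and 31.9 in vehicle, 24.7, 19.00, 21.7 and 44.2 in AdKO and 13.8, 24.2, 21.4 and 10.8 in AdCre. Vehicle replicate 3 and AdKO replicate 4 were the highest of their cohorts here too, and AdCre replicate 4 was the lowest, whereas in the drug cohort the lowest was tubastatin replicate 3. With tubastatin 9 of the 10 tested markers had negative fold changes (median −0.56), 5 of them at an unadjusted p under 0.05, and the median was −0.35 without tubastatin replicate 3 or without vehicle replicate 3. In AdKO all 10 had positive ones (median 0.43), 2 of them at an unadjusted p under 0.05, and without AdKO replicate 4 the count was 7 and the median 0.19. Over all genes, 54.6% were negative and 6.10% lower at an unadjusted p under 0.05 with tubastatin. In AdKO 50.9% of all genes were positive and 4.78% higher at that p. None of the markers passed over all genes in either comparison. Their part in the class I values was not tested.

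Within groups, all 10 genes had a positive r with the T and NK cell marker level. It ran from 0.220 (Tapbp) to 0.770 (Psmb9), with a median of 0.64. For each list this level was the mean of log2(FPKM + 1) over its tested markers, each centred on its own mean, not the summed FPKM. Of 30 relations between the 10 genes and the T and NK cell, macrophage and adipocyte lists, 2 had an adjusted permutation p under 0.05 for r. H2-K1 gave r = 0.762 and rho = 0.668, with permutation p = 0.00173 and 0.00845 and adjusted p = 0.0290 and 0.102. Psmb9 gave r = 0.770 and rho = 0.700, with permutation p = 0.00193 and 0.00835 and the same adjusted p values, 0.0290 and 0.102. Without the 2 farthest libraries r was 0.656 for H2-K1 and 0.659 for Psmb9. Within the drug cohort it was 0.694 for H2-K1 and 0.702 for Psmb9, and within the knockout cohort 0.835 and 0.841. The macrophage list gave r from −0.364 to 0.572 and the adipocyte list from −0.697 to 0.144, with no adjusted p under 0.05. B cell markers summed to 24.8 to 83.6 FPKM in tubastatin, 50.02 to 130.4 in vehicle, 4.21 to 30.9 in AdKO and 5.03 to 18.03 in AdCre, highest in vehicle replicate 3 again.

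**Figure D5:**
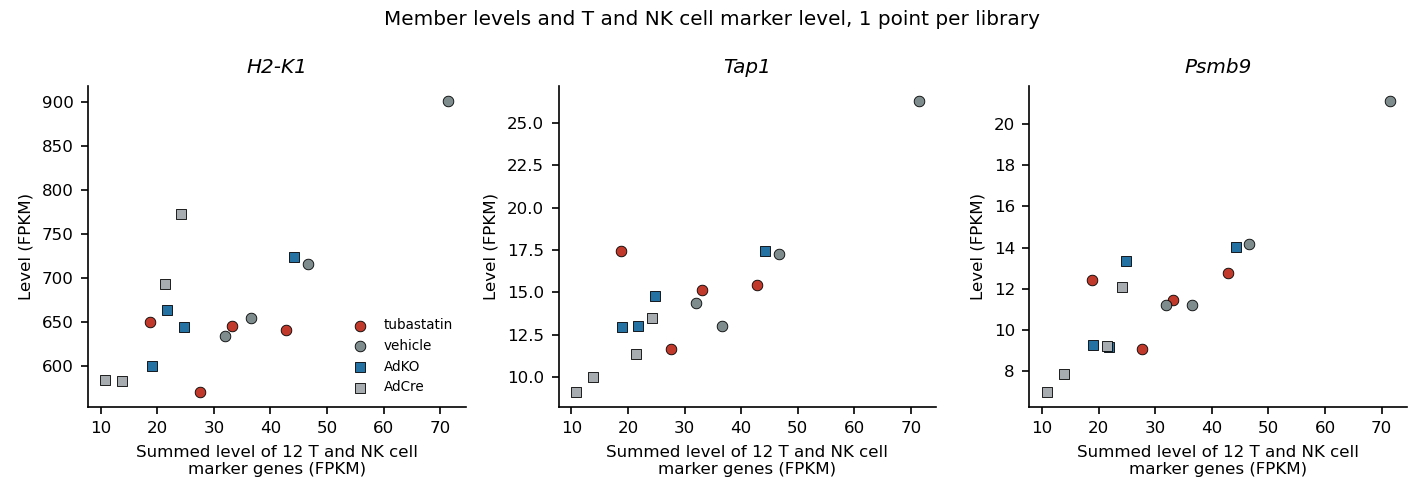
Levels of H2-K1, Tap1 and Psmb9 in FPKM (vertical axes, not from 0) against the summed level of 12 T and NK cell markers in FPKM (horizontal axis), 1 point per library, circles for the drug cohort and squares for the knockout cohort. Vehicle replicate 3, at 71.5 FPKM of markers, lies at the upper right of every panel. The correlations in the text used the mean log2 level of the tested markers, not this sum.

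The genes whose pattern was most like the 10 were sought among all other tested genes, by Pearson's r over the 16 libraries, cohort means removed, with the mean of the 10 scaled genes. The non-classical class I gene H2-Q4 had r = 0.938. Others among the 10 most alike were Tbx21 (0.911), Gbp5 (0.910), H2-Q7 (0.907), Irf1 (0.903), H2-T10 (0.892), Gbp2 (0.888), H2-Q6 (0.879) and Psme1 (0.869). These values describe the libraries and carry no test.

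Other class I genes were given as lists. Of 16 non-classical class I and class I-like genes 13 were tested, and with tubastatin 12 had negative fold changes (median −0.27, where 54.6% of all genes were negative), 6 were lower at an unadjusted p under 0.05 (6.10% of all genes), and 0 passed over all genes. Vehicle replicate 3 was again the highest of all 16 libraries for every tested H2 gene of this list. In H2-Q6 it stood at 108 FPKM, against 59.5 to 68.6 in the other vehicle libraries. H2-Q4 had 61.2, 52.2, 54.1 and 47.6 FPKM with tubastatin and 69.2, 61.6, 91.8 and 63.2 with vehicle, and H2-T24 averaged 5.91 ± 1.31 with tubastatin and 8.85 ± 1.86 with vehicle (SD, n = 4 each). Both were lower in every tubastatin library than in any vehicle library, with log2 fold changes of −0.39 (SE 0.13) and −0.51 (SE 0.17) and limma adjusted p = 0.360 and 0.350. In AdKO against AdCre 10 of the 13 were positive (median 0.19, where 50.9% of all genes were positive), 3 were higher at an unadjusted p under 0.05 (4.78% of all genes), and 0 passed. H2-M3, which presents formylated peptides, averaged 20.7 ± 5.53 FPKM in AdKO and 14.4 ± 1.25 in AdCre (SD, n = 4 each). The groups overlapped, with 24.1, 15.6, 16.4 and 26.6 FPKM in AdKO and up to 16.3 in AdCre. The log2 difference of H2-M3 was 0.46 (SE 0.17), limma adjusted p = 0.419. These genes share sequence with each other and with the classical chains, and how shared reads were assigned is not given in the sources used here.

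Peptide loading and interferon signalling were read from lists too. Of 6 loading and trimming genes, Tapbpl, the tapasin-related editor of peptides, had 11.9, 10.3, 11.6 and 9.92 FPKM with tubastatin and 15.7, 14.2, 19.4 and 12.8 with vehicle. Its groups did not overlap, and the log2 difference was −0.46 (SE 0.12), limma adjusted p = 0.295, while the list as a whole had 3 negative and 3 positive fold changes (median −0.01). In AdKO all 6 were positive (median 0.11, where 50.9% of all genes were positive), 0 passing. Of 18 interferon and STAT regulators 16 were tested, Ifng and Ifnb1 being under 1 FPKM on average. With tubastatin 8 were negative and 8 positive (median 0.005), and 5 and 11 when scaled to total reads in genes. In AdKO 15 were positive and 1 negative (median 0.13), where 50.9% of all genes were positive. Irf7, a factor of the type I interferon response, had 11.5, 12.2, 12.4 and 13.4 FPKM in AdKO and 9.13, 7.83, 7.37 and 6.25 in AdCre, and Stat2, part of the complex that type I interferon activates, averaged 12.8 ± 0.978 in AdKO and 9.73 ± 1.74 in AdCre (SD, n = 4 each). Neither overlapped between the groups, with log2 fold changes of 0.64 (SE 0.10) and 0.38 (SE 0.12) and limma adjusted p = 0.203 and 0.364. Irf1, which acts downstream of interferon-gamma, overlapped in both comparisons.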

How the data were processed

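RNA of 16 epididymal fat libraries was measured by RNA-seq, with total RNA prepared in Trizol, DNase-treated and cleaned on columns, per the labels' protocols. The authors deposited 1 table of FPKM values, whose aligner, counter, build and library kit the sources used here do not give. Each of the 16 columns carries the title of 1 sample, and groups came from the labels. Inguinal fat, named in the design line, was not analysed here. Symbols were found for 54409 of 54532 gene IDs, and 21760 IDs were listed at 0 throughout.

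Genes with a mean of at least 1 FPKM over the 16 libraries (13271) were tested on log2(FPKM + 1), a pseudocount of 1 that understates the change of low genes, by the trend method of limma 3.58.1 in R 4.3.3, with p-values adjusted over all of them after Benjamini and Hochberg. The 8 libraries of a cohort entered its comparison, and all 16 the difference of the effects. Ratios and Hdac6 were tested by exact permutation over 70 relabelings, and correlations by 100000 permutations within groups (SciPy 1.17.1, Python 3.11.15). The fit was checked on simulated reads.

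Low FPKM values lay on whole-read steps. With exon lengths of GENCODE M21 (GRCm38), chosen here because no build is stated, 96.3 to 96.5% of values above 0 in each library were whole reads within 0.01 read. In all 16 libraries 12622 of the tested genes (95.1%) came out whole. For the other 649, H2-K1, Tapbp, Psmb8 and Psmb9 among them, the smallest length giving whole reads was used, so read numbers are printed only for genes with the annotated length. The scale of the deposited values was 0.957 to 1.05 times the total of reads in genes, which was therefore tried as another scaling. Limma voom on the recovered reads called 0 genes in each comparison. Libraries of a group differed beyond sampling noise, at chi-square values per gene of 15.3 to 135, so none were merged.

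The genes, lists and tests were chosen with earlier results of these data known. The text names the 10 genes, Hdac6, Psmb5, Psmb6 and Psmb7, the genes with the smallest p of each list, up to 4 a list, and the 10 genes of most similar pattern, with predicted genes left out and 1 of the 10 not reported here. H2-Q4, H2-T24, H2-M3, Tapbpl, Irf7 and Stat2 fall under the lists. The lists are peptide loading and trimming, proteasome activators with Pomp, constitutive 20S core, non-classical class I, and interferon and STAT regulators. RFX, NF-Y and CREB factors and 9 lists of cell type markers complete them. Alternatives were a pseudocount of 0.1, no filter, a mean of at least 5 FPKM, median-of-ratios factors, 1 shared spread, a replicate block, voom, each library left out, AdCre replicates 2 and 3 left out, and, chosen after seeing the data, scaling to total reads in genes.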

Additional observations from a re-analysis of the deposited data

Results flagged for a closer look

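In 6 of 68 groups of 4 libraries examined for the class I genes, their constitutive counterparts and related values, 1 library stood far from the other 3, where chance alone gives about 1 in 20. H2-K1 in tubastatin replicate 4, at 570.1 FPKM, was below the next lowest tubastatin library at 641 FPKM. H2-D1 in AdCre replicate 2, at 928 FPKM, was above the next at 761 FPKM. Psmb5 was high in tubastatin replicate 3, at 91.3 FPKM against 76.5 FPKM for the next. It was low in AdKO replicate 2, at 64.4 FPKM against 72.1 FPKM for the next. Psmb6 in AdCre replicate 1, at 65.1 FPKM, stood above the next at 53.1 FPKM. Psmb7 in vehicle replicate 2, at 22.6 FPKM, stood above the next at 17.9 FPKM. Vehicle replicate 3, the highest library for all 10 class I genes, was not among these.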

How the results depend on the processing

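None of the 10 class I genes was called in any comparison under any alternative. Genes called among all tested, 0 in each comparison, numbered 3 with tubastatin, 2 in AdKO and 1 in the difference of effects without a filter on low values. With 1 spread shared by all 16 libraries they numbered 8 with tubastatin and 43 in AdKO, and scaled to total reads in genes 1 with tubastatin. With each library left out in turn they ran from 0 to 2 with tubastatin, 0 to 1 in AdKO and 0 to 5 in the difference. The cause was not tested.

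Negative fold changes among the 10 genes in AdKO numbered 1 when scaled to total reads in genes and 0 without AdCre replicates 2 and 3, and 0 to 3 with each library left out. Tapbp turned to 0.0111 with total reads and to 0.00532 without AdCre replicates 2 and 3, and B2m to 0.0764 without that pair. With each library left out, AdKO fold changes ran from −0.0770 to 0.0140 for B2m, −0.0482 to 0.0875 for H2-K1 and −0.0609 to 0.00617 for Tapbp, and with tubastatin from −0.283 to 0.0193 for Psmb8. The Hdac6 difference with tubastatin ran from −0.0763 to 0.0449 FPKM.

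The ratio differences with each library left out ran from −0.50 to −0.17 for Psmb8 over Psmb5 and −0.56 to −0.36 for Psmb10 over Psmb7 with tubastatin, and from 0.44 to 0.66 for Psmb8 over Psmb5 and 0.32 to 0.63 for Psmb9 over Psmb6 in AdKO. Psmb8 over Psmb5 in AdKO had an exact p of 0.0571 without AdCre replicate 1, 3 or 4, and differed by 0.664 without AdCre replicates 2 and 3, where the smallest exact p is 0.0667. Its groups stayed free of overlap without these libraries, and fewer libraries give fewer relabelings. With tubastatin Psmb8 over Psmb5 reached an exact p of 0.0286 without vehicle replicate 2, as did Psmb9 over Psmb6 in AdKO without AdCre replicate 2. With the replicate number as a block, 0 genes were called in each comparison, and Psmb10 with tubastatin had an adjusted p of 0.403 by limma. Same-numbered libraries correlated at −0.104 to 0.0178 in the drug cohort and −0.232 to 0.33 in the knockout cohort. AdKO replicates 1 and 3 matched the same-numbered AdCre library best, and replicates 2 and 4 did not. These values do not settle whether same-numbered libraries share more than a number.

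With 4 libraries a group, the 95% intervals with tubastatin reached log2 differences as low as −0.73 (Psmb9), so the lack of a call does not show equal levels. Among the class I genes with the annotated length, Nlrc5 rested on the fewest reads, 831 to 2372 per library. The reads recovered for Psmb8 and Psmb9, whose lengths were inferred, were fewer still.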

Other observations

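Proteasome activators and the factors that bind class I promoters were also read. Psme1 and Psme2 form the interferon-inducible cap that opens the proteasome. Psme1 had 43.03, 36.8, 40.7 and 36.6 FPKM with tubastatin and 45.6, 39.00, 52.8 and 39.4 with vehicle, and Psme2 had 48.2, 50.3, 59.8 and 50.05 with tubastatin and 57.3, 56.5, 71.7 and 55.9 with vehicle. Both overlapped between the groups, with vehicle replicate 3 the highest, and had log2 fold changes of −0.16 (SE 0.11) and −0.21 (SE 0.10), limma adjusted p = 0.554 and 0.449. Of the 5 genes of the activator list, among them the proteasome assembly gene Pomp, 3 were negative with tubastatin (median −0.01) and 4 in AdKO (median −0.04). Over all genes 54.6% were negative with tubastatin and 49.1% in AdKO, and 0 of the 5 were called in either comparison.

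Of 9 RFX, NF-Y and CREB factors 7 had positive fold changes in each comparison, with medians of 0.06 with tubastatin and 0.16 in AdKO, and 0 were called. Over all genes 45.4% were positive with tubastatin and 50.9% in AdKO. Rfx5, the DNA-binding subunit of RFX, had 3.195, 3.35, 3.597 and 3.82 FPKM in AdKO and 2.95, 2.9, 2.797 and 2.94 in AdCre. Every AdKO library was above every AdCre library, a log2 difference of 0.20 (SE 0.07), limma adjusted p = 0.379. Ciita, the class II counterpart of Nlrc5, averaged 7.62 ± 2.32 FPKM in AdKO and 5.56 ± 0.906 in AdCre (SD, n = 4 each), overlapping, limma adjusted p = 0.526.

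Of the remaining marker lists, macrophage markers had 5 of 6 positive fold changes with tubastatin (median 0.13) and 6 of 6 in AdKO (median 0.29). B cell markers had 4 of 4 negative with tubastatin (median −0.73) and 4 of 4 positive in AdKO (median 0.35). Neutrophil markers had 4 of 4 positive with tubastatin (median 0.93) and 3 of 4 in AdKO (median 1.14). Adipocyte markers had 6 of 6 negative in both comparisons (medians −0.28 with tubastatin and −0.48 in AdKO), and endothelial markers 5 of 5 (medians −0.03 and −0.19). Mesothelial markers had 3 of 5 positive with tubastatin (median 0.003) and 5 of 5 in AdKO (median 0.89). Of the 4 dendritic cell markers 2 were tested, with medians of −0.28 with tubastatin and −0.14 in AdKO, and of the 4 epididymal epithelium markers 1, at −0.15 and −0.86. Over all genes tested, 54.6% of fold changes were negative with tubastatin and 49.1% in AdKO, while 45.4% and 50.9% were positive. No marker was called over all genes in either comparison.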
